A study of Homo sapiens with 24 samples.

Results

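The early answer of 769-P cells to dasatinib was read from 6 of the 24 arrays of the series: 3 of 769-P cells given dasatinib at 1 µM for 6 h and 3 of 769-P cells given the vehicle DMSO. 769-P is a human renal cell carcinoma line that was established from a primary tumour, and the labels name no genetic change. The other 18 arrays hold 769-P cells after 12 h and 24 h of the drug and the line Caki-1, from a metastasis of a renal carcinoma, under the same 4 conditions. The labels set no hour for the vehicle arrays, so hours of drug exposure and hours in culture cannot be told apart. Arrays of 1 group are labelled as biological replicates, and nothing says how their cultures were kept apart, so the p-values measure the spread between these arrays, which may in part be technical. Each of 18132 genes was read from 1 probe set, the brightest of those that name that gene alone. Of these genes, 12350 lay above the filter on dim signal, a mean log2 signal of 5.362 over the 12 arrays of 769-P, and were tested. A gene with all DMSO arrays under that level could pass only through the arrays with the drug, and where such a gene is named the size of its rise rests on readings near the floor of the array.

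Dasatinib occupies the ATP pocket of the SRC family kinases, of ABL kinases and of several receptor kinases such as the ephrin receptor EPHA2. SRC kinases pass signals from integrins and growth factor receptors to the RAS and ERK cascade, whose transcriptional output includes immediate-early genes, AP-1 subunits, MYC and cyclin D1, and also genes that switch the cascade off again. The same kinases act on the actin cytoskeleton and on YAP and TAZ, coactivators that bind TEAD factors. Growth factor signalling through AKT holds FOXO factors in the cytoplasm, where they are idle, and NRF2 is a transcription factor that drives antioxidant enzymes once it escapes degradation through KEAP1.

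At 6 h, 2021 genes rose (16.4% of those tested) and 1796 fell (14.5%), together 30.9%. These shares are the background for each count of a gene list below, and a count near them does not set a list apart from other genes. Here and below, a gene rose or fell where its adjusted p in limma was under 0.05. A change is the mean log2 signal under dasatinib minus that under DMSO, with 3 arrays a group. It is given ± the SE from limma, which draws on the spread within all groups of the 12 arrays of a line. For the difference between lines that spread came from all 24 arrays. Most of these changes were small: 2509 of the 3817 called genes changed by less than 1.5-fold. At least 2-fold changes were found in 227 genes that rose (1.84%) and 232 that fell (1.88%), and in 134 and 145 genes when each gene was read from the mean of all its probe sets. That choice mattered for single genes too. A second value or a lost call is given below where the mean of all probe sets shrank a change by over 1.5 times. Of 203 genes named and called at 6 h, 187 had such a mean in the test. The rest had one under the filter on dim signal and carry no second value, among them PCK1, NR3C2, ATF3, ETV1, CDC25A, BYSL and PDK4. Changes of 8-fold or more were seen in 7 genes that rose and 8 that fell. The median change of all genes tested was 0.025, with quartiles of -0.137 and 0.181. Rises outnumbered falls with the values as deposited, while falls were the more numerous, 1949 against 1822, once each array was centred on its median. The 3 arrays of 1 group lay wholly above or below the 3 of the other in 43.0% of the genes tested. That held for 3715 of the 3817 called genes, so in a called gene a lack of overlap adds little to the test.

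**Figure D1:**
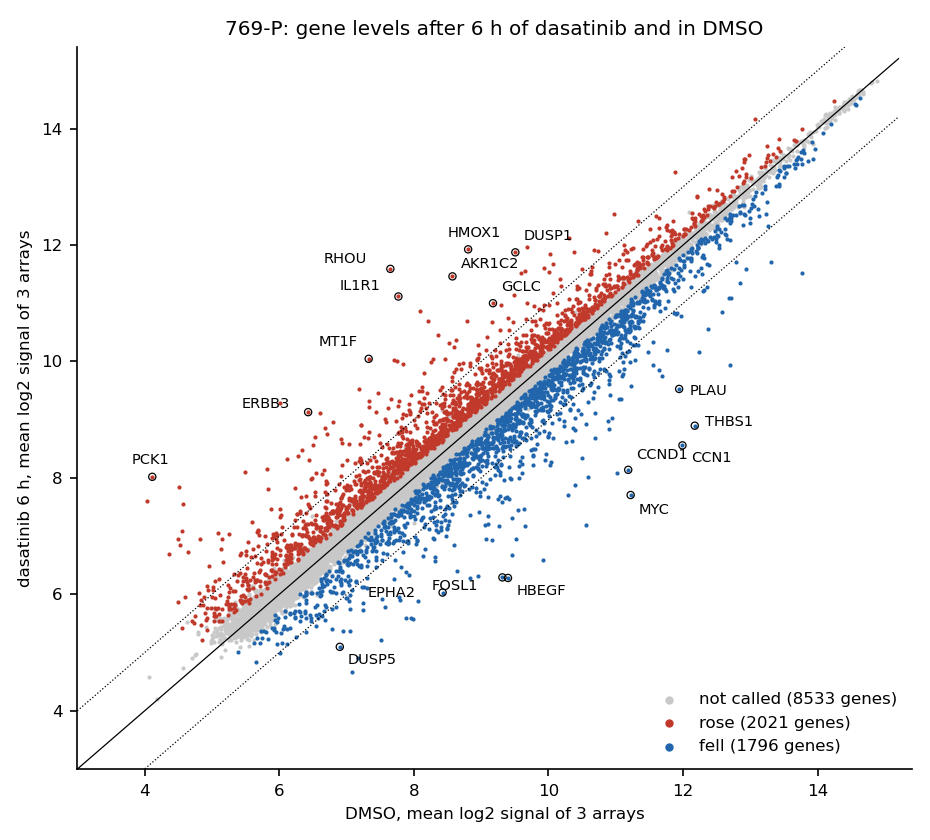
Mean log2 signal of each tested gene under DMSO (horizontal) and after 6 h of dasatinib (vertical) in 769-P cells, 3 arrays each. Red points are genes that rose, blue points genes that fell, and dotted lines mark 2-fold changes. MYC, CCND1 and CCN1 lie among bright genes far below the diagonal, and HMOX1 and RHOU far above it.

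The renal label was checked on marker genes. PAX8, PAX2 and the keratins KRT8 and KRT18 were among the 12 of 15 renal epithelial markers above the filter level, and of these 12 the kidney factor LHX1 fell by 1.62 ± 0.08, KRT18 fell by 0.38 ± 0.08 and the membrane protease MME rose by 0.71 ± 0.24. The call of MME was lost without any of 4 single arrays, DMSO replicate 1 or 2 or dasatinib replicate 2 or 3. The log2 signal summed over all 15 renal markers was 114.53 to 116.02 under DMSO and 112.91 to 114.44 at 6 h, lower at 6 h with no overlap. That sum includes the fall of LHX1. Of the 12 renal markers tested 9 were not called, and their median change was -0.008. Above that level were also 5 of 13 leukocyte markers, namely CD3E, CD79A, CD68, CSF1R and TYROBP. So were 6 of 10 endothelial markers, PECAM1, VWF, TIE1, KDR, ESAM and EGFL7. PDGFRB, DES and MYH11 were the 3 of 10 fibroblast and muscle markers above it. PTPRC, CDH5, COL1A1 and DCN were under the level, as were LRP2, AQP1 and SLC5A2 of the renal list. The same sum under DMSO and at 6 h was 66.77 to 66.92 and 66.61 to 68.16 for the leukocyte markers. It was 54.03 to 55.47 and 54.63 to 55.86 for the endothelial markers, and 50.53 to 51.94 and 50.90 to 51.19 for those of fibroblasts and muscle. The part of such cells in the results was not tested. Array medians lay within 6.008 to 6.084 in the series, and arrays of each of the 6 h and DMSO groups correlated at 0.9943 to 0.9968 over all probe sets. RNA came from whole cultures, so less RNA per cell and fewer cells in a given state cannot be told apart.

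Receptors and ligands at the head of the pathway moved in both directions. HBEGF, a membrane-bound ligand of the EGF receptor, had log2 signals of 9.75, 9.500 and 8.94 under DMSO and of 6.58, 6.09 and 6.18 at 6 h. All arrays under the drug were below all under DMSO, and the gene fell by 3.12 ± 0.21 (adjusted p = 2.8e-08 in limma), which is 8.67-fold. ERBB3, a receptor of the same family that signals through AKT, read 5.57, 6.58 and 7.14 under DMSO, an uneven group with replicate 1 lowest. Under dasatinib it read 8.60, 9.40 and 9.39, above every DMSO array, and rose by 2.70 ± 0.35, or 1.30 with the mean of its 3 probe sets. Of 12 receptors, ligands and inhibitors of this family tested, 6 rose and 4 fell. The ligands NRG1 and TGFA fell by 0.78 ± 0.17 and 0.48 ± 0.08. Other ligands, EGF and BTC, rose, EGF by 0.63 ± 0.12. EGFR itself fell by only 0.28 ± 0.09, a call lost with the mean of its probe sets (adjusted p = 0.126 in limma) and without DMSO replicate 1 or dasatinib replicate 1 or 3. LRIG1, a membrane protein that promotes degradation of these receptors, rose by 0.95 ± 0.15 from DMSO values under the filter level. With all probe sets averaged NRG1 stood at -0.47 and TGFA at -0.27.

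EPHA2, a receptor for ephrins and a direct target of dasatinib, read 8.59, 8.38 and 8.31 under DMSO and 6.22, 5.98 and 5.89 at 6 h. The groups lay far apart, and EPHA2 fell by 2.39 ± 0.14 (adjusted p = 5.2e-09 in limma). Its ligand EFNA1 moved the other way and rose by 0.99 ± 0.10. Of 14 ephrin receptors and ephrins tested, 3 fell, the others being EPHB1 (-0.93 ± 0.14) and EPHA7 (-0.79 ± 0.10), and 3 rose, with EPHA4 at 0.90 ± 0.22 and EFNA4 at 0.40 ± 0.09. Transcripts of 11 of the 18 kinases listed as targets of the drug did not pass the test. Among these SRC changed by 0.03 ± 0.13, YES1 by 0.01 ± 0.07, LYN by 0.06 ± 0.14 and DDR1 by -0.03 ± 0.14. ABL1 fell by 0.33 ± 0.08 and ABL2 by 0.35 ± 0.11. The call of ABL2 was lost with the mean of its probe sets (adjusted p = 0.0717 in limma) and without any of 3 single arrays, DMSO replicate 1 or dasatinib replicate 2 or 3. FRK, SIK2 and SIK3, an SRC-related kinase and a pair of salt-inducible kinases, rose by 0.87, 0.85 and 0.79. The DMSO arrays of FRK were under the filter level. Altogether 4 of 18 target kinases rose and 3 fell. With all probe sets averaged 2 rose, and FRK was then under the filter and not tested.

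Among the other growth factor receptors, adaptors and ligands, 12 of 24 fell and 4 rose, beside 14.5% and 16.4% of all genes tested. IRS1, the adaptor of the insulin and IGF receptors, read 8.80, 8.65 and 8.46 under DMSO and 6.67, 6.51 and 6.04 at 6 h, with no overlap, and fell by 2.23 ± 0.18. IRS2, a second adaptor of that kind, fell by 0.68 ± 0.12. Their receptors went up: INSR rose by 1.55 ± 0.19 and IGF1R by 0.78 ± 0.14. Ligands that fell included PDGFB at -1.36 ± 0.16, FGF2 at -0.96 ± 0.11 and VEGFA at -0.88 ± 0.07. The receptor kinase ROR1 fell by 1.48 ± 0.19. MET and AXL, receptors often active in renal carcinoma, fell by only 0.26 and 0.26, and both calls were lost with the mean of their probe sets. By that measure IRS1 stood at -1.41, INSR at 0.85, IGF1R at 0.31, PDGFB at -0.56, VEGFA at -0.31 and EPHA4 at 0.54.

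Genes that ERK signalling induces and that in part damp it were next. Of 9 Sprouty, SPRED and ETV genes tested, 5 fell, with a median change of -1.04 beside 0.025 for all genes. ETV5, a transcription factor of the PEA3 group, read 8.74, 8.79 and 8.97 under DMSO and 6.30, 5.86 and 6.70 at 6 h. Every treated array was lower by a wide margin, and ETV5 fell by 2.55 ± 0.22. SPRED2 and SPRED1, which block the activation of RAF, fell by 2.10 ± 0.10 and 1.90 ± 0.10, ETV1 by 1.74 ± 0.19 and SPRY2 by 1.04 ± 0.18. SPRED2 stood at -0.91 with the mean of its 3 probe sets. SPRY4 lay under the filter, at 5.80, 5.66 and 5.57 under DMSO and 5.31, 4.73 and 5.11 at 6 h.

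The phosphatases that act on MAP kinases split. DUSP5, a nuclear phosphatase of ERK, had log2 signals of 7.01, 7.08 and 6.61 under DMSO against 5.22, 4.80 and 5.28 at 6 h. These groups did not overlap, and DUSP5 fell by 1.80 ± 0.15, to values under the filter level. DUSP4, which also acts in the nucleus, fell by 0.63 ± 0.15, and DUSP6, the cytoplasmic ERK phosphatase, by 0.48 ± 0.15. The DUSP6 call was lost without DMSO replicate 2 (change -0.36) or dasatinib replicate 1 (-0.29). DUSP1, which prefers JNK and p38, read 9.55, 9.57 and 9.40 under DMSO and 11.86, 11.90 and 11.86 at 6 h. The groups were tight and far apart, and it rose by 2.37 ± 0.07 (adjusted p = 1.7e-11 in limma), 5.16-fold. In total 4 of 8 phosphatases fell, or 2 with the stricter filter on dim genes, and DUSP1 rose.

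**Figure D2:**
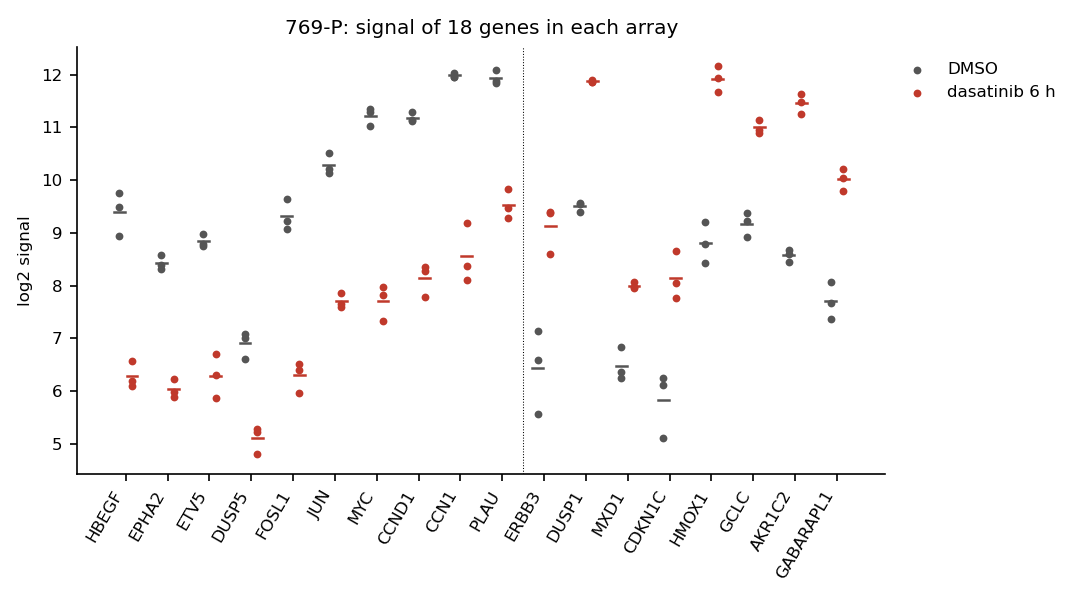
Log2 signal of 18 genes in each of the 3 DMSO arrays (grey) and the 3 arrays after 6 h of dasatinib (red) in 769-P cells, with bars at the group means. The 10 genes left of the dotted line fell and the 8 to its right rose, and in none of them do the groups overlap, as in most called genes.

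Subunits of AP-1, the dimeric factor formed by FOS and JUN proteins, did not move as a block. FOSL1 read 9.65, 9.08 and 9.22 under DMSO and 6.40, 6.51 and 5.96 at 6 h, a fall of 3.02 ± 0.22, or 8.13-fold. JUN went from 10.52, 10.21 and 10.13 to 7.85, 7.60 and 7.65 and fell by 2.59 ± 0.17. Both were clear of overlap. FOS and JUND, at 0.02 ± 0.10 and -0.01 ± 0.14, did not pass the test. A further 3 genes of the list fell by less, namely MAFF (-0.97 ± 0.20), BATF3 (-0.58 ± 0.15) and JUNB (-0.54 ± 0.11). ATF3, a stress-induced partner, read 7.67, 7.09 and 7.54 under DMSO and 9.27, 9.12 and 9.02 at 6 h and rose by 1.70 ± 0.15. MAF rose by 2.33 ± 0.48 from a wide DMSO group of 6.14, 6.99 and 8.45, or by 0.93 with the mean of its 4 probe sets. FOSL2 rose by 0.67 ± 0.11. In sum 5 of 12 fell and 3 rose.

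Immediate-early genes, the first to answer growth signals, fell in 10 of 22 cases and rose in 7. EGR1, a zinc-finger factor induced by ERK through SRF, read 6.82, 7.01 and 6.21 under DMSO and 5.56, 5.47 and 5.64 at 6 h. The treated arrays were close together and below the DMSO arrays, and EGR1 fell by 1.12 ± 0.18, or by 0.59 with the mean of its 6 probe sets. SRF itself, the factor that binds CArG boxes, read 9.05, 8.95 and 8.75 and then 7.83, 7.73 and 7.72, and fell by 1.16 ± 0.10. PHLDA1 fell by 1.92 ± 0.13, KLF4 by 1.81 ± 0.12, KLF2 by 1.59 ± 0.18, IER3 by 1.51 ± 0.12 and IER2 by 1.35 ± 0.11. The mean of both probe sets put SRF at -0.66 and KLF2 at -0.91. Both directions occurred within families. ZFP36, which promotes decay of AU-rich mRNA, rose by 1.61 ± 0.11 and its relative ZFP36L2 by 0.90 ± 0.09, while ZFP36L1 fell by 0.38 ± 0.06, a call lost with the mean of its probe sets (adjusted p = 0.0852 in limma). IER5 rose by 0.33 ± 0.08 and NAB2, which represses EGR factors, by 0.54 ± 0.12. BTG1, an antiproliferative protein, rose by 1.499 ± 0.15, and the orphan nuclear receptors NR4A2 and NR4A3 by 1.16 ± 0.14 and 1.02 ± 0.16. The DMSO arrays of NR4A2 were under the filter level. With a stricter filter on dim genes 4 of the 7 risers were counted.

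The promoters of EGR1 and SRF are shown because both genes fell and both carry CArG boxes near the start. They are RefSeq sequences of GRCh38.p14, from 250 bases before to 50 after the transcription start, with the CArG boxes in capitals, and the region and strand of each stand after its name. A CArG box is the 10-letter SRF motif, searched on both strands.
EGR1, chr5:138465229-138465528, plus strand: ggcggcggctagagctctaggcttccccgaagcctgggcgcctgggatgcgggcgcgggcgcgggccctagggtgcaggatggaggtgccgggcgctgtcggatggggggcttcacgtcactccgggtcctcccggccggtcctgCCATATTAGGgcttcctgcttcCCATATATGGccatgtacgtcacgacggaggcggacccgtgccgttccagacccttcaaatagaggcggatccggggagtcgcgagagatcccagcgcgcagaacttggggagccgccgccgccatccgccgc
SRF, chr6:43171019-43171318, plus strand: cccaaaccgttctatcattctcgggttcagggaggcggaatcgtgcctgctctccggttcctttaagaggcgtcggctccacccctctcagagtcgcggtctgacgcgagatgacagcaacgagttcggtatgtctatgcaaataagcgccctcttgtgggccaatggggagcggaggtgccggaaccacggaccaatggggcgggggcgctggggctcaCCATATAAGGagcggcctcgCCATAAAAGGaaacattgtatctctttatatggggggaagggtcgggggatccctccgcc
Each holds 2 boxes, with first bases 105 and 83 bases before the transcription start in EGR1 and 30 and 10 bases before it in SRF. Among the 10084 tested genes with a promoter in the table, 110 (1.09%) held such a box. They were found in 2 of the 7 promoters of immediate-early genes that fell, and in none of the 5 of those that rose. Of all genes that fell, 1.56% had one, against 0.992% of those that rose. A match describes the letters and does not show that SRF was bound there.

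MYC, a transcription factor for growth and ribosome production, read 11.35, 11.29 and 11.02 under DMSO and 7.97, 7.32 and 7.83 at 6 h. No other gene with a signal above the median of all probe sets fell as far: the change was -3.51 ± 0.16 (adjusted p = 8e-10 in limma), or 11.4-fold. Its partner MAX, which MYC needs to bind DNA, did not pass the test, at -0.13 ± 0.08. The MXD proteins compete with MYC for MAX and repress its targets, and these went up. MXD1 read 6.35, 6.24 and 6.84 under DMSO and 7.94, 7.96 and 8.06 at 6 h and rose by 1.51 ± 0.14, MXI1 by 1.13 ± 0.11, MXD3 by 1.01 ± 0.09 and MXD4 by 0.67 ± 0.19. In the whole network 4 of 13 genes rose and 3 fell, the other falls being those of MLXIP (-0.54 ± 0.11) and MLX (-0.34 ± 0.09). With all probe sets averaged MXD1 stood at 0.80, MXI1 at 0.52, MXD3 at 0.43 and MLXIP at -0.298, and the call of MXD4 was lost without DMSO replicate 1 or 2 or dasatinib replicate 1.

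Factors that build ribosomes fell in 30 of 37 cases, against 14.5% of all genes tested falling, and their median change was -0.69. RRS1, needed to assemble the large subunit, read 11.98, 11.63 and 11.45 under DMSO and 9.94, 9.64 and 9.67 at 6 h, far apart. It fell by 1.93 ± 0.12. The nucleolar factors WDR43, NOP16, BYSL and LYAR fell by 1.75, 1.72, 1.67 and 1.64, the RNA helicase DDX21 by 1.49, and POLR1B, a subunit of RNA polymerase I, by 1.37. FBL and DKC1, which modify ribosomal RNA, did not pass the test, at -0.04 ± 0.06 and -0.15 ± 0.07. The ribosomal proteins themselves scarcely changed: 2 of 34 rose, 2 fell, and all lay between -0.14 and 0.19. An E-box of the letters CACGTG, the site of MYC with MAX, stood in 9 of 26 promoters (34.6%) of ribosome factors that fell, beside 9.89% of all tested genes with a promoter and 13.3% of those that fell. The same letters stood in 3 of 9 promoters of YAP and TEAD targets that fell and in 4 of 18 of FOXO targets that rose. They stood in 0 of 12 of NRF2 targets that rose. Here too a match does not show that a factor was bound. In polyamine synthesis, which MYC also feeds, AMD1 fell by 0.89 ± 0.10 and ODC1 did not pass the test, at 0.05 ± 0.14.

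The G1 cyclins and their kinases fell in 7 of 8 cases, with a median of -0.80. With all probe sets averaged 4 fell, and CDC25A was then under the filter and not tested. CCND1, cyclin D1, read 11.29, 11.15 and 11.12 under DMSO and 8.35, 7.79 and 8.28 at 6 h and fell by 3.05 ± 0.14, 8.26-fold. CCNE2, a cyclin of the G1 to S transition, went from 9.36, 9.46 and 9.35 to 7.68, 7.80 and 7.53, a fall of 1.72 ± 0.11. Arrays within each of these groups lay close together, and no groups overlapped. CDC25A, the phosphatase that activates CDK2, fell by 1.39 ± 0.17 and CCNE1 by 1.08 ± 0.13. CDK4 did not pass the test, at -0.08 ± 0.09. Of 7 inhibitors of these kinases tested, 2 rose and 2 fell. CDKN1C, known as p57, read 5.11, 6.12 and 6.24 under DMSO and 8.65, 7.76 and 8.04 at 6 h and rose by 2.33 ± 0.29. CDKN1B, or p27, rose by 0.85 ± 0.10, and CDKN1A, or p21, did not pass the test, at -0.02 ± 0.09. CDKN2B, or p15, fell by 0.75 ± 0.22 and CDKN2D, or p19, by 0.53 ± 0.13. The call of CDKN2B was lost without DMSO replicate 3 or dasatinib replicate 3 (adjusted p = 0.0727 and 0.0645 in limma). With the mean of its 3 probe sets CDKN2B stood at -0.45.

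Factors of the E2F and retinoblastoma family fell in 9 of 13 cases, with E2F7 at -0.87 ± 0.12, E2F1 at -0.60 ± 0.21 and TFDP1 at -0.61 ± 0.06, while TFDP2 rose by 0.67 ± 0.10. The call of E2F1 was lost without DMSO replicate 2 or 3 or dasatinib replicate 2 or 3, after quantile normalization and without the intensity trend, and E2F7 stood at -0.44 with the mean of both its probe sets. DNA replication genes fell in 16 of 29 cases, with a median of -0.27. That count was 10 without DMSO replicate 1 or 2, or without dasatinib replicate 3. MCM10 and CDC6, which act in loading and firing of the replicative helicase, led with falls of 1.28 ± 0.16 and 1.25 ± 0.16. Mitosis genes went the other way at this time, with 12 of 28 rising and 1 falling. CDC25C, the phosphatase that activates CDK1, read 8.46, 8.23 and 8.14 under DMSO and 9.15, 9.27 and 8.96 at 6 h and rose by 0.85 ± 0.14. The kinesin KIF20A rose by 0.64 ± 0.10 and the kinetochore protein NDC80 by 0.44 ± 0.10, whereas CDK1 and MKI67 did not pass the test, at 0.08 ± 0.10 and -0.04 ± 0.08.

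**Figure D3:**
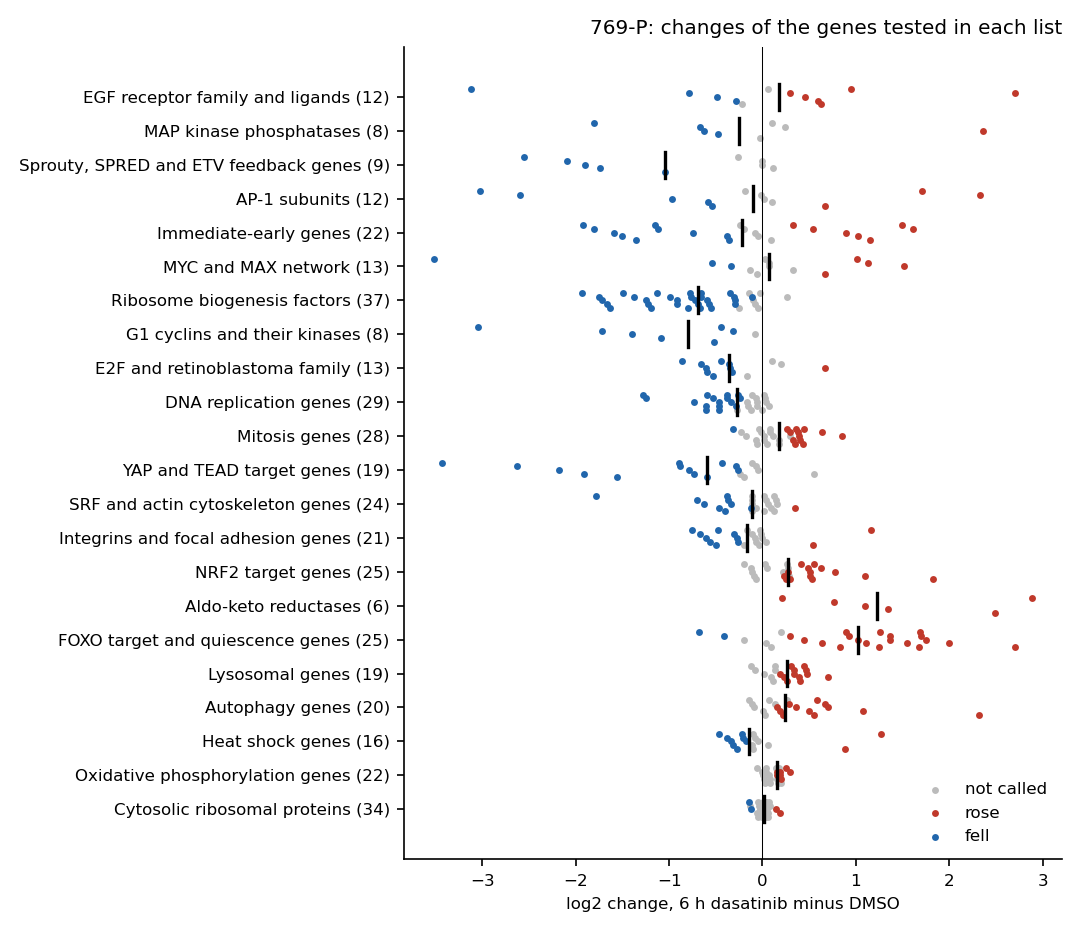
Log2 change after 6 h of dasatinib of each tested gene in 22 lists (number of genes tested in brackets), with red for genes that rose, blue for genes that fell, grey for genes not called and a black bar at the list's median. The medians run from -1.04 for Sprouty, SPRED and ETV genes to 1.22 for aldo-keto reductases, and ribosomal proteins stay near 0.

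Targets of YAP and TEAD fell in 13 of 19 cases, with a median of -0.59. CCN1, a secreted matrix protein and a standard readout of YAP, read 11.97, 12.04 and 11.96 under DMSO and 9.19, 8.11 and 8.37 at 6 h. The drop was 3.43 ± 0.27 (adjusted p = 1.3e-07 in limma), 10.8-fold, and the treated arrays were the more spread. Its relative CCN2 read 6.34, 7.14 and 6.56 and then 4.32, 3.52 and 3.96, without overlap, and was kept out of the test by its low mean. With no filter it fell by 2.75 ± 0.24. AMOTL2, an inhibitor of YAP that YAP induces, fell by 2.63 ± 0.24, or by 1.05 with the mean of its 3 probe sets. FJX1, GADD45B and AJUBA fell by 2.17, 1.91 and 1.55. GADD45B stood at -0.97 with the mean of its 4 probe sets. F3, MYOF and NUAK2 did not pass the test. Among the pathway's own parts WWTR1, which is TAZ, read 12.27, 12.41 and 12.42 under DMSO and 10.53, 10.64 and 10.52 at 6 h and fell by 1.80 ± 0.08, while YAP1 fell by 0.42 ± 0.09, or by 0.198 with the mean of its 8 probe sets.

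Actin genes and targets of SRF came next. Of 24 tested, 9 fell and 1 rose. FHL2, a LIM-domain coactivator, read 11.59, 11.68 and 11.65 under DMSO and 9.82, 9.84 and 9.92 at 6 h and fell by 1.78 ± 0.07. VCL, which links integrins to actin, fell by 0.70 ± 0.07 and ACTB by 0.34 ± 0.08, and TAGLN did not pass the test, at 0.09 ± 0.12. In the integrin and focal adhesion list 9 of 21 genes fell and 2 rose. ITGA3, a receptor chain for laminin, fell by 0.76 and the adaptor PXN by 0.67. ITGB8 read 8.33, 8.95 and 9.62 and then 9.84, 10.30 and 10.23, and rose by 1.16 ± 0.22. PLAU, the secreted protease urokinase, read 12.10, 11.85 and 11.88 under DMSO and 9.47, 9.28 and 9.84 at 6 h. It fell by 2.41 ± 0.12 and its receptor PLAUR by 1.44 ± 0.16. With all probe sets averaged VCL stood at -0.45, ITGA3 at -0.48, ITGB8 at 0.696 and PLAUR at -0.89. THBS1, a matrix glycoprotein, was bright under DMSO at 12.08, 12.18 and 12.26 and read 9.04, 8.74 and 8.92 at 6 h, a fall of 3.28 ± 0.14, or of 1.897 with the mean of its 5 probe sets.

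Many genes of antioxidant defence rose. HMOX1, the enzyme that degrades haem, read 9.20, 8.43 and 8.79 under DMSO and 12.16, 11.68 and 11.94 at 6 h. Each treated array stood above every DMSO array, and HMOX1 rose by 3.12 ± 0.20 (adjusted p = 1.5e-08 in limma), 8.69-fold. In the list of haem and iron genes 6 of 12 rose, among them the ferritin receptor NCOA4 (0.63 ± 0.08), and the constitutive enzyme HMOX2 fell by 0.82 ± 0.09. NRF2 targets rose in 14 of 25 cases, against 16.4% of all genes. GCLC, the catalytic subunit of the enzyme that limits glutathione synthesis, went from 8.92, 9.22 and 9.39 to 10.95, 11.15 and 10.90 and rose by 1.83 ± 0.11. Its regulatory partner GCLM rose by 0.78 ± 0.08, and SLC7A11, which imports the cystine for that pathway, by 1.10 ± 0.10. NQO1, TXNRD1 and SRXN1 rose by about equal amounts, at 0.48 ± 0.04, 0.51 ± 0.06 and 0.51 ± 0.08. NFE2L2, the gene of NRF2, and KEAP1, through which NRF2 is degraded, were counted among the 14 and rose by 0.41 ± 0.06 and 0.25 ± 0.07. The call of KEAP1 was lost without DMSO replicate 3 or dasatinib replicate 1. TXN, PRDX1, PGD and GSR, also targets of NRF2, did not pass the test.

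The promoters of GCLM and TXNRD1 are shown because both rose and both hold an antioxidant response element, searched on both strands as TGACNNNGC and set in capitals. They too are RefSeq sequences of GRCh38.p14, in the orientation of the gene.
GCLM, chr1:93909381-93909680, minus strand: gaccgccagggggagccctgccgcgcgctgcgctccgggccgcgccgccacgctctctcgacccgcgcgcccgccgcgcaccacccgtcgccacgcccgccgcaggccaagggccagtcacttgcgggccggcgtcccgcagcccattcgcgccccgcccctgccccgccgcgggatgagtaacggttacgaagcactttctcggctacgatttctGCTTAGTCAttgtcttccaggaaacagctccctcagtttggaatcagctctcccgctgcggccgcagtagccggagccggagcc
TXNRD1, chr12:104215529-104215828, plus strand: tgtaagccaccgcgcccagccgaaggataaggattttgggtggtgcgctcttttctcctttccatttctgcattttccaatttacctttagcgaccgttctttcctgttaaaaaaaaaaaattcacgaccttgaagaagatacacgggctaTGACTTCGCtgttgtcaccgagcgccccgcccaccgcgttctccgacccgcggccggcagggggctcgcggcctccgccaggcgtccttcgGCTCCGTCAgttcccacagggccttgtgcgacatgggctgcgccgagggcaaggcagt
The match in GCLM starts 34 bases before the transcription start, and those in TXNRD1 start 99 and 8 bases before it. These were 2 of the 12 promoters of genes in the NRF2 list that rose (16.7%), NFE2L2 and KEAP1 included. Among all tested genes with a promoter 1514 of 10084 (15%) held a match, and 15.5% of all genes that rose did, so the list lay near these shares. GCLC and NQO1 had none in this window.

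Aldo-keto reductases, which reduce carbonyl compounds with NADPH, rose in all 6 members tested. AKR1C2 read 8.45, 8.60 and 8.67 under DMSO and 11.48, 11.64 and 11.26 at 6 h and rose by 2.89 ± 0.08, AKR1C1 by 2.48 ± 0.22 and AKR1B10 by 1.35 ± 0.30. AKR1C1 and AKR1C2 are nearly identical in sequence, so their probe sets may share signal, and the mean of its 3 probe sets put AKR1C2 at 1.19. In the metallothioneins, which bind zinc and copper, 3 of 8 genes of the list rose. MT1F went from 7.89, 6.98 and 7.11 to 9.60, 9.90 and 10.63, a rise of 2.72 ± 0.28, MT1X rose by 1.80 ± 0.27, and the zinc exporter SLC30A1 by 0.69 ± 0.11. MT2A and MT1E did not pass the test, at 0.13 ± 0.09 and 0.08 ± 0.18. These genes too are close relatives. Genes of the aryl hydrocarbon receptor axis rose in 3 of 9 cases, or 5 with the replicate number as a block. AHRR, the receptor's repressor, read 3.89, 4.53 and 5.07 under DMSO and 6.53, 7.24 and 7.06 at 6 h and rose by 2.45 ± 0.26, or by 1.32 with the mean of its 2 probe sets. Its DMSO arrays were under the filter level, and the mean at 6 h lay 1.58 above it. CYP1B1, a cytochrome it induces, rose by 2.14 ± 0.38 from the uneven DMSO values of 5.77, 5.98 and 7.27, while CYP1A1 was at 0.02 ± 0.17.

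Genes that FOXO factors induce or that mark growth arrest rose in 19 of 25 cases and fell in 2, with a median of 1.02. CCNG2, a cyclin of resting cells, read 6.73, 7.48 and 7.78 under DMSO and 9.20, 9.44 and 9.35 at 6 h, without overlap, and rose by 2.002 ± 0.20. TXNIP, an arrestin that limits glucose uptake and binds thioredoxin, read 9.57, 9.91 and 10.32 and then 10.87, 12.05 and 11.90 and rose by 1.67 ± 0.28. Its relative ARRDC3 rose by 1.75 ± 0.17, KLHL24 by 1.70 ± 0.20 and YPEL2 by 1.69 ± 0.17. With all probe sets averaged CCNG2 stood at 1.22 and YPEL2 at 0.58. FOXO1 itself rose by 0.64 ± 0.09, or by 0.32 with the mean of its 4 probe sets. PDK4, which blocks entry of pyruvate into the mitochondrion's oxidative cycle, rose by 1.37 ± 0.30 from 4.18, 4.56 and 4.75, values under the filter level. ERBB3 and INSR, given above among the receptors, belong to this list too. The lowest change in the list was -0.68, the same as that of the adaptor IRS2 given above.

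Lysosomal genes rose in 12 of 19 cases and autophagy genes in 12 of 20. GABARAPL1, a protein of the autophagosome membrane, read 7.37, 7.66 and 8.07 under DMSO and 9.80, 10.04 and 10.21 at 6 h and rose by 2.32 ± 0.17. The kinase ULK1, which starts autophagy, rose by 1.08 ± 0.11 and its partner RB1CC1 by 0.70 ± 0.08. The changes of lysosomal genes were smaller, up to 0.70 ± 0.09 for the sialidase NEU1. GABARAPL1 stood at 1.34 with the mean of its 4 probe sets. Of glucose and hypoxia genes 5 of 20 fell, or 3 without DMSO replicate 1 or dasatinib replicate 2 or 3. Rises were found in 3 of them, or 5 with the replicate number as a block, beside 16.4% of all genes. HK2, the inducible hexokinase, fell by 1.605 ± 0.15, while NDRG1 rose by 1.65 ± 0.09 and the carbonic anhydrase CA12 by 1.16 ± 0.29. PGK1, LDHA and ENO1, enzymes of glycolysis, did not pass the test. In sterol synthesis 6 of 13 genes fell, led by SQLE at -1.34 ± 0.17, though only 2 without DMSO replicate 1 or dasatinib replicate 2 and 3 without dasatinib replicate 3. In fatty acid synthesis SCD fell by 1.07 ± 0.29 and ACACA by 0.77 ± 0.14. With all probe sets averaged HK2 stood at -0.80, NDRG1 at 0.83, CA12 at 0.76, SCD at -0.69 and ACACA at -0.35. Respiratory chain subunits rose in 7 of 22 cases by at most 0.29, a count that fell to 2 without dasatinib replicate 2 and to 3 or 4 under several other settings.

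Genes of cell death and stress changed in both directions. BCL2L11, which encodes the killer protein BIM, read 8.16, 8.30 and 8.32 under DMSO and 10.06, 9.82 and 10.10 at 6 h and rose by 1.74 ± 0.11, and BMF, of the same class, by 0.72 ± 0.14. BCL2L1 and MCL1, which protect cells, fell by 1.22 ± 0.11 and 0.66 ± 0.06, and PMAIP1, a killer protein also called NOXA, by 1.35 ± 0.15. Targets of p53 fell in 8 of 21 cases and rose in 4, beside 14.5% and 16.4% of all genes tested. GADD45A and the death receptors FAS and TNFRSF10B fell by 1.63, 1.28 and 1.18, and TP53INP1 rose by 1.17. DDIT4, an inhibitor of the growth kinase mTORC1, read 7.92, 7.98 and 8.36 under DMSO and 10.90, 10.72 and 10.97 at 6 h and rose by 2.78 ± 0.11. Among the other genes of its list, the targets of ATF4 and of the unfolded protein response, ATF4 fell by 0.22 ± 0.06, HSPA5 by 0.48 ± 0.06, and ASNS and TRIB3 did not pass the test. In that list 3 of 22 genes fell and 3 rose, both near the shares of all genes. The falls numbered 6 once arrays were centred on their medians and 5 with the replicate number as a block or without DMSO replicate 3. Heat shock genes fell in 8 of 16 cases, or 4 without dasatinib replicate 3 and 5 without DMSO replicate 2, while DNAJB4 and CRYAB rose by 1.27 and 0.89. The mean of all probe sets put BCL2L11 at 0.83, BMF at 0.288, TP53INP1 at 0.66 and CRYAB at 0.37.

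Secreted signals and lineage factors showed a few large changes. LIF, a cytokine of the interleukin 6 family, fell by 1.55 ± 0.12. It was the 1 of 8 interleukins and chemokines tested that fell. CXCL8 changed by 0.45 ± 0.37 between wide groups, and IL6 lay under the filter at 4.78, 5.36 and 4.63 under DMSO and 4.92, 4.98 and 4.73 at 6 h. INHBA, an activin subunit, fell by 1.55 ± 0.14 and BMP2 by 0.97 ± 0.25. The ID proteins, which block differentiation factors and answer to BMP, rose: ID4 by 2.29 ± 0.12, ID2 by 1.91 ± 0.09, ID3 by 1.56 ± 0.09 and ID1 by 0.56 ± 0.09. ID4 read 9.31, 9.86 and 9.85 under DMSO and 11.92, 12.004 and 11.97 at 6 h. JAG1 and NOTCH2, a ligand and a receptor of the Notch pathway, fell by 0.95 and 0.94, and the Notch target HEY1 rose by 0.85. Of 18 interferon-stimulated genes tested 6 rose, with the RNA sensor RIGI at 1.24 ± 0.11 and IFIT1 at 1.04 ± 0.11. The renal factors PAX8 and PAX2 did not pass the test, at 0.10 ± 0.07 and 0.09 ± 0.13. By the mean of all probe sets LIF stood at -0.91, NOTCH2 at -0.51, HEY1 at 0.497 and LHX1 at -1.03.

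Several of the largest rises lay outside these lists. RHOU read 7.47, 7.86 and 7.63 under DMSO and 11.48, 11.77 and 11.52 at 6 h. No overlap was near, and the rise was 3.94 ± 0.16 (adjusted p = 2.6e-10 in limma), 15.3-fold. In the GRCh38.p14 annotation RHOU lies on chromosome 1 from 228644647 to 228746669. PCK1, the enzyme that commits oxaloacetate to gluconeogenesis and a gene of the proximal tubule, read 4.08, 4.02 and 4.24 under DMSO, all under the filter level. At 6 h it read 7.75, 8.51 and 7.80, a rise from near the floor of the array of 3.91 ± 0.21. PCK1 lies on chromosome 20 from 57561110 to 57568121. GPR183, a receptor for oxysterols, went from 4.27, 4.23 and 3.63, under the filter level, to 7.96, 7.31 and 7.53 and rose by 3.56 ± 0.34. The mean of its 6 h arrays lay 2.24 above that level. IL1R1, the receptor of interleukin 1, read 7.48, 7.86 and 7.97 and then 10.90, 11.37 and 11.08, a rise of 3.35 ± 0.15, or of 1.92 with the mean of its 2 probe sets. The transcription factor FOXQ1 read 4.72, 4.34 and 4.49 under DMSO, again under the filter level, and 7.75, 7.72 and 8.09 at 6 h, a mean of 2.49 above it, and rose by 3.34 ± 0.17. TPPP, which bundles microtubules, rose by 3.27 ± 0.19, or by 2.14 with the mean of its 2 probe sets. AVPI1, SSTR1, NR3C2 and GMNC were also among the 20 largest, at 2.51, 2.61, 2.34 and 2.54. All DMSO arrays of NR3C2 and GMNC were under the filter level, and their 6 h means lay 1.34 and 1.73 above it. SSTR1 stood at 1.40 with the mean of its probe sets. NR3C2 is the mineralocorticoid receptor and SSTR1 a somatostatin receptor.

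Falls outside the lists were headed by MYEOV and OTUB2. MYEOV, a gene amplified with its neighbour CCND1 in some tumours, read 10.40, 10.55 and 10.72 under DMSO and 7.37, 6.73 and 7.47 at 6 h and fell by 3.36 ± 0.16. It lies on chromosome 11 from 69294155 to 69297287 and CCND1 on chromosome 11 from 69641156 to 69654474. OTUB2, a deubiquitinase, went from 10.01, 9.61 and 10.12 to 6.67, 6.16 and 6.96, a fall of 3.32 ± 0.22. HMGA2, a chromatin protein of embryonic and tumour cells, read 11.06, 11.15 and 10.86 and then 8.13, 7.91 and 8.21. Its brightest probe set fell by 2.94 ± 0.11, and the mean of its 6 probe sets by 0.81. The polo-like kinase PLK2 fell by 2.76 ± 0.15, the potassium channel KCNJ15 by 2.79 ± 0.13 and the adenosine receptor ADORA2B by 2.41 ± 0.14, the last to values under the filter level. UBASH3B, a phosphatase that acts on SRC-family substrates and receptors, fell by 2.51 ± 0.20. FRMD6 and ARID3B fell by 2.56 and 2.56, or by 1.57 and 1.28 with the mean of their probe sets.

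To show where this response differed from that of Caki-1 at the same time, the 769-P change minus the Caki-1 change was tested over all 24 arrays. It was higher in 568 genes (4.42% of 12862 tested) and lower in 473 (3.68%), together 8.09%. A gene entered this test if it lay above the filter in either line, and 11908 lay above it in both. In the others 1 of the compared changes comes from a line with a mean signal under the filter. Genes of ERK feedback, AP-1 and the immediate-early response differed in 24 of 49 tested in both lines, lower in 769-P in 19 and higher in 5. DUSP5 changed by -1.80 ± 0.15 in 769-P and 0.75 ± 0.17 in Caki-1, a difference of -2.55 ± 0.25 (adjusted p = 1.4e-07 in limma). In Caki-1 its arrays read 8.71, 8.87 and 8.88 under DMSO and 9.49, 9.60 and 9.61 at 6 h, so the lines moved in opposite directions. EGR1 did the same, with 1.15 ± 0.14 in Caki-1 and a difference of -2.27 ± 0.25, and so did DUSP6, with 0.88 ± 0.18 and a difference of -1.36 ± 0.26. MYC fell in both lines and further in 769-P, by a difference of -2.38 ± 0.21, as did HBEGF (-2.53 ± 0.30), OTUB2 (-2.28 ± 0.31), HMGA2 (-2.31 ± 0.16) and CCND1 (-0.78 ± 0.23). FOSL1, CCN1 and EPHA2 fell in both lines, and their differences of -0.72 ± 0.28, 0.11 ± 0.39 and -0.52 ± 0.18 did not pass the test, that of EPHA2 doing so with the replicate number as a block (adjusted p = 0.0228 in limma) or without dasatinib replicate 1 of 769-P. The CCND1 difference was lost without the intensity trend and without any of 7 single arrays: DMSO replicate 1 or 2 or dasatinib replicate 2 of 769-P, and DMSO replicate 1 or 2 or dasatinib replicate 2 or 3 of Caki-1. With all probe sets averaged the differences shrank to -0.49 for HMGA2, -1.33 for EGR1, 1.36 for ERBB3, -1.26 for FOXO1 and -1.63 for HS3ST1, all still past the test.

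**Figure D4:**
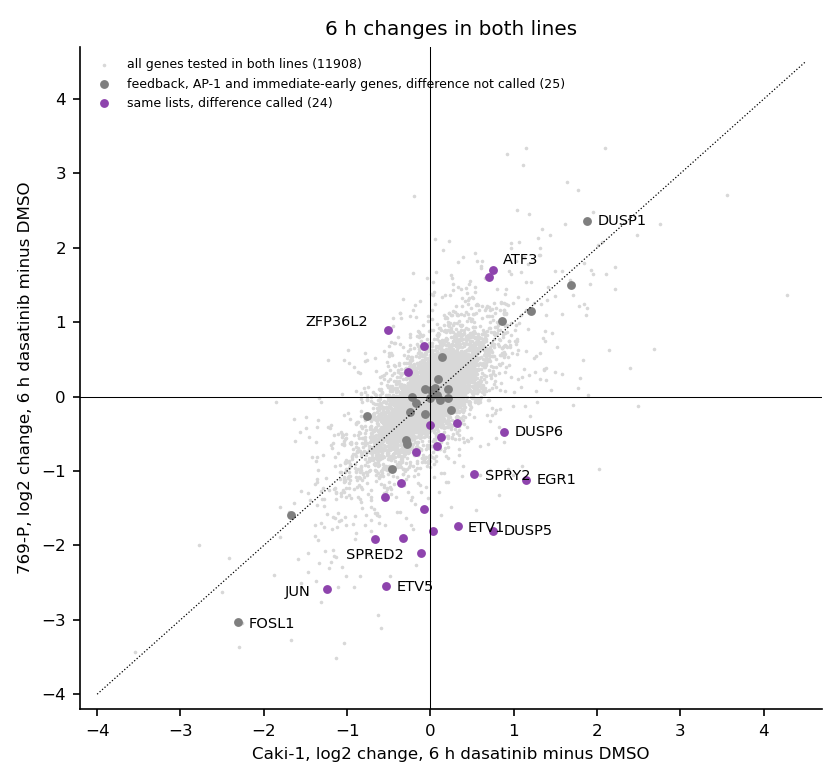
Log2 change after 6 h of dasatinib in Caki-1 (horizontal) and 769-P (vertical) for genes tested in both lines, each line against its own 3 DMSO arrays. Purple points are the 24 feedback, AP-1 and immediate-early genes whose change differed between the lines, and 19 of them lie below the dotted line of equal change.

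Changes that were higher in 769-P than in Caki-1 included RHOU (difference 3.56 ± 0.21), PCK1 (3.47 ± 0.26), ERBB3 (2.90 ± 0.45) and GPR183 (2.69 ± 0.41). In Caki-1 the arrays of RHOU read 3.83, 3.66 and 4.14 under DMSO and 4.30, 4.23 and 4.22 at 6 h, and those of PCK1 3.44, 3.60 and 3.77 and 4.10, 3.88 and 4.12, in both cases near the floor of the array. GPR183 too was under the filter level in all 6 of these Caki-1 arrays. HMOX1 rose in both lines, and more in 769-P by 2.01 ± 0.28, and GCLC by 1.27 ± 0.19. GCLM, TXNRD1 and SRXN1 differed by -0.26 ± 0.15, -0.12 ± 0.09 and -0.04 ± 0.13, none past the test. FOXO1 and PDK4 rose less in 769-P, with differences of -2.05 ± 0.13 and -2.91 ± 0.46. HS3ST1, which modifies heparan sulphate, fell by 0.97 ± 0.28 in 769-P and rose by 2.03 ± 0.31 in Caki-1, a difference of -2.996 ± 0.46. Its 769-P arrays overlapped, at 5.94, 6.73 and 7.05 under DMSO and 5.48, 5.27 and 6.05 at 6 h, and by the mean of both its probe sets it fell by 0.55. That fall was not called without any of 4 single arrays, DMSO replicate 2 or 3 or dasatinib replicate 1 or 2.

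How the early changes went on was asked by setting 12 h of dasatinib against 6 h in the same line; the DMSO arrays entered this contrast through the shared estimate of the spread. At 12 h, 1101 genes were higher than at 6 h (8.91%) and 1255 lower (10.2%), and the first number was 726 without dasatinib 6 h replicate 1. Both tests share the 6 h arrays, so a gene that was extreme by chance at 6 h tends to move back at 12 h. Higher at 12 h than at 6 h were 3 of 8 MAP kinase phosphatases, 3 of 9 Sprouty, SPRED and ETV genes, 8 of 22 immediate-early genes and 2 of 12 AP-1 subunits, and lower were 1, 0, 2 and 0. MYC was higher at 12 h than at 6 h by 0.72 ± 0.16, DUSP5 by 1.198 ± 0.15, EGR1 by 1.09 ± 0.18, DUSP6 by 1.11 ± 0.15 and THBS1 by 0.97 ± 0.14. Against DMSO, EGR1 stood at -0.03 at 12 h and 1.42 at 24 h, and DUSP6 at 0.63 and 2.35. CCND1 and FOSL1 stayed low, with 12 h minus 6 h at -0.26 ± 0.14 and 0.14 ± 0.22, neither past the test, though CCND1 was lower at 12 h with the mean of its probe sets (-0.46) or without dasatinib 6 h replicate 2 (-0.44).

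**Figure D5:**
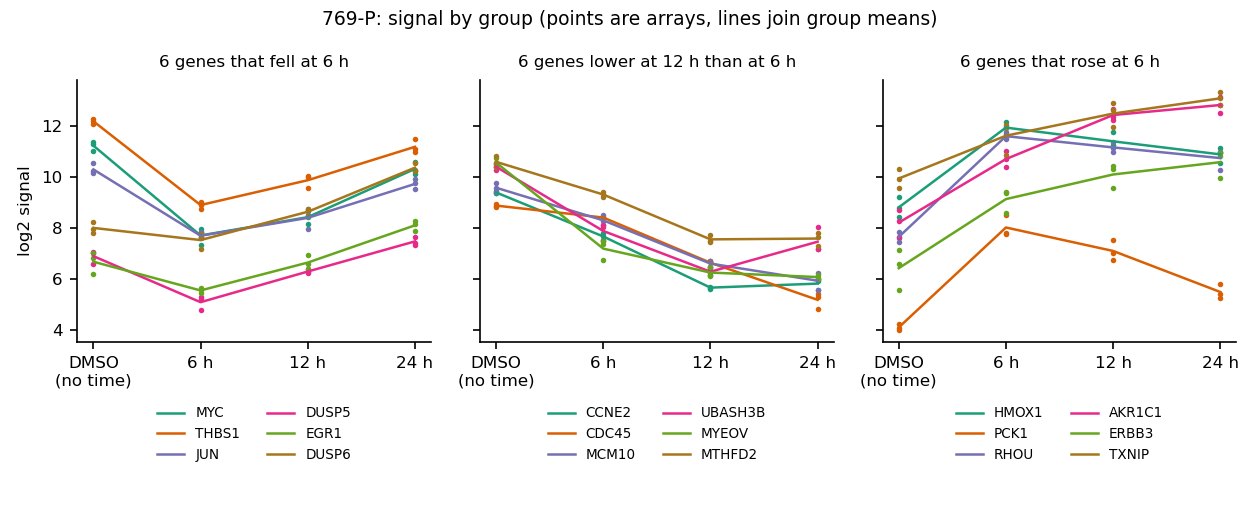
Log2 signal of 18 genes in 769-P cells under DMSO, for which the labels set no hour, and after 6, 12 and 24 h of dasatinib, with 1 point for each array and lines through the group means. In the left panel signals are lowest at 6 h, in the middle panel they are lower at 12 h than at 6 h, and in the right panel PCK1 peaks at 6 h while AKR1C1 and TXNIP go on upwards.

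Replication genes went on downwards, with 27 of 29 lower at 12 h than at 6 h. CDC45, a part of the replicative helicase, was -0.47 ± 0.13 at 6 h and a further -1.77 ± 0.13 at 12 h, and CCNE2 changed by a further -2.001 ± 0.11. Mitosis genes were lower at 12 h than at 6 h in 9 of 28 cases, and their median against DMSO was 0.18 at 6 h, 0.03 at 12 h and -3.02 at 24 h. Ribosome factors were lower at 12 h in 13 of 37 cases. GABRB1, FAM111B and MTHFD2 were among the 5 largest later falls, at -1.06, -1.11 and -1.28 at 6 h and a further -2.91 ± 0.21, -1.90 ± 0.16 and -1.75 ± 0.14. MTHFD2 is a mitochondrial enzyme of folate metabolism and GABRB1 a subunit of a chloride channel. On the rising side AKR1C1 was higher by 1.72 ± 0.22 at 12 h, TTC39A by 1.51 ± 0.13 and ACSM3 by 1.45 ± 0.11. DNER and HLF, at 0.02 ± 0.21 and 0.25 ± 0.19 at 6 h, did not pass the test then, and they were higher at 12 h by 1.48 ± 0.21 and 1.47 ± 0.19. All DMSO and 6 h arrays of DNER were under the filter level, so its 6 h value compares readings near the floor. The DMSO arrays of TTC39A were under that level too, and its 6 h mean lay 0.15 above it. PCK1 came down from its 6 h level, with 12 h minus 6 h at -0.92 ± 0.21. For HMOX1 the value was -0.54 ± 0.20 (adjusted p = 0.0701 in limma), and it passed the test with the replicate number as a block (adjusted p = 0.00353 in limma), without DMSO replicate 1 or without dasatinib 12 h replicate 3.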

How the data were processed

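RNA of 24 samples was hybridised to 24 Affymetrix PrimeView arrays. The authors deposited 1 log2 signal for each of 49395 probe sets and array. MAS5 is named in the submitters' processing notes, and its version, its settings and how arrays were brought to a common level are not given in the sources used here. Array number limits the precision. Members and gene lists were chosen with earlier results of these data known.

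Probe sets were named through the platform's annotation, updated to RefSeq GRCh38.p14 symbols: 44988 name 1 gene, 1832 several and 2473 none. The 102 control probe sets were left out. For each gene the single-gene probe set with the highest mean over 24 arrays was used, and genes with a mean over the 12 arrays of 769-P above the 40th percentile of all probe set means (5.362) were tested. Group means were fitted in limma 3.58.1 under R 4.3.3, with the prior variance following mean signal (the intensity trend) and Benjamini-Hochberg adjustment over all genes tested. The 6 h and 12 h tests used the 12 arrays of 769-P (8 residual degrees of freedom), and the difference between lines used all 24 (16). For that difference a gene had to lie above the filter in at least 1 line, with a level of 5.379 in Caki-1. Named genes were the 20 largest rises and falls that did not overlap between groups, members of the lists, and the genes with the largest differences between lines or times. Arrays of 769-P with the same replicate number deviated together (correlations of 0.362, 0.111 and 0.293 between DMSO and 6 h), so a fit with that number as a block was run too. It gave 2356 genes higher and 2005 lower at 6 h and kept 3816 of the 3817 calls. In simulated data for the 6 h test, 75.4% of genes changed by 0.5 and 98.4% of those changed by 1 on the log2 scale were recovered among 12350 genes. That simulation changed far fewer genes than were called here and gave arrays of equal replicate number no shared deviation. Recovery under the conditions of the real data was therefore not measured.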

Additional observations from a re-analysis of the deposited data

Results flagged for a closer look

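The 6 h change differed between the lines in the 23 genes below, each by a test of the difference itself in limma. They were taken from the largest called differences in each direction and from a fixed list of names. Only genes whose difference was called were kept, so their number follows from that choice. All values are the 769-P change minus the Caki-1 change on the log2 scale.

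RHOU (3.56), PCK1 (3.47), ERBB3 (2.90), GPR183 (2.69), C11orf96 (2.55), GMNC (2.45), TPPP (2.35), SOX8 (2.26), HMOX1 (2.01) and GCLC (1.27) were higher in 769-P. Of these, RHOU, PCK1, GPR183, C11orf96, GMNC and SOX8 lay under the filter on dim signal in all 6 Caki-1 arrays and were not tested there. In 769-P the DMSO arrays of PCK1, GPR183, C11orf96, GMNC and SOX8 were also under it, and SOX8, a transcription factor, rose by 2.33 ± 0.19 to a mean 1.49 above the filter level.

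HS3ST1 (-2.996), KCNJ15 (-2.92), PDK4 (-2.91), DUSP5 (-2.55), HBEGF (-2.53), MYC (-2.38), HMGA2 (-2.31), OTUB2 (-2.28), EGR1 (-2.27), FOXO1 (-2.05), DUSP6 (-1.36), IL6 (-1.06) and CCND1 (-0.78) were lower in 769-P. KCNJ15 was under the filter in all 6 Caki-1 arrays and IL6 in all 6 of 769-P, and neither was tested there. The DMSO arrays of PDK4 were under it in both lines. Among genes called in both lines in opposite directions with the difference called, 45 rose in 769-P and fell in Caki-1, and 39 did the reverse.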

How the results depend on the processing

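Of the 3817 calls at 6 h, none was called in the opposite direction and 2828 to 3816 were called again the same way under the settings run: arrays centred on their medians, quantile normalization, no or a stricter filter on dim genes, the mean of all probe sets, no intensity trend, the replicate block, only the 6 arrays compared, all 24 arrays, and each array left out in turn. Without single arrays the number of genes higher ran from 1569 to 2156 and lower from 1421 to 1881, and at least 2-fold from 203 to 257 and from 225 to 248. For the difference between the lines these ranges were 450 to 613, 366 to 517, 119 to 162 and 115 to 136, and for 12 h against 6 h 726 to 1244, 924 to 1382, 33 to 58 and 56 to 70. Averaging all probe sets gave fewer changes of at least 2-fold: 134 higher and 145 lower at 6 h, 71 higher for the difference between lines, and 21 higher and 38 lower for 12 h against 6 h. Centring on the median put 48.3% of calls on the higher side, against 52.9% as deposited and 55.5% after quantile normalization. With the replicate number as a block 2356 genes were higher and 2005 lower, and beside the list counts and genes given in the text it changed no call of a gene named at 6 h. Counts of 5 or fewer genes in a list often moved by 1 under a setting. Genes close to the background of the array have compressed changes, and 5782 genes under the filter were not tested.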
